A study of Pagiophloeus tsushimanus with 15 samples.

Results

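The genes of DNA replication and the cell cycle were followed in whole weevil larvae (Pagiophloeus tsushimanus) through 176 of the 34486 unigenes in the deposited table. A unigene is an assembled transcript group that stands for a gene. Members were the rows whose description, the name of a similar protein in another species, contained 1 of 9 phrases. These were DNA replication licensing factor, DNA polymerase, origin recognition complex, replication factor C, proliferating cell nuclear antigen, ribonucleoside-diphosphate reductase, mitotic-specific cyclin, cyclin-dependent kinase and cell division cycle. The rule itself uses no measured value. The name fitted 48 of the 176 members, which are called cellular members here. The other 128 were rows for RNA-directed DNA polymerases, the reverse transcriptases of mobile elements such as jockey, X-element and transposon BS. They were drawn in by the phrase DNA polymerase, which matched 139 rows in all. They copy the elements' own RNA into DNA and are no part of chromosome replication, so they are described apart.

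RNA was sequenced from whole bodies in 15 libraries, 3 for each of 5 diets. The additive that the labels call EO was fed at 10 mg/g or at 30 mg/g, D-camphor, a volatile terpenoid ketone, at 17 mg/g or at 41 mg/g, and untreated larvae ate a diet without terpenoids. The labels do not spell out EO, and they give neither the larvae's age nor whether a replicate was 1 animal or a pool. P-values therefore measure the spread between these libraries only, which may be technical. In whole-body RNA, fewer dividing cells and less RNA per dividing cell cannot be told apart.

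A cell copies its whole genome before it divides. In the G1 phase the origin recognition complex sits on replication origins and, with Cdt1, loads the ring-shaped MCM helicase. In S phase cyclin-dependent kinases help to fire the origins, the polymerases alpha, delta and epsilon make DNA, and the sliding clamp PCNA, loaded by replication factor C, holds polymerases on the template. Cyclin B with CDK1 then drives mitosis, which ends when the anaphase-promoting complex and its activator CDC20 mark mitotic proteins for destruction. Insect larvae grow through divisions in some tissues, such as imaginal discs and neuroblasts, and through repeated S phases without mitosis in many others, which raises the DNA content of each cell. Both need the S phase proteins, and mitotic proteins mark division.

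Values are TPM, a transcript level per length that is scaled to the same total in each library, so levels can be set side by side between genes. Marker lists for tissues of the larva were detected in every library. The summed level of the muscle list, for instance, lay between 9450.5 and 14252.26 TPM. Its 34 unigenes were picked by words such as myosin heavy chain and troponin, which do not exclude non-muscle myosin. The fat body list, of 6 unigenes, varied more between libraries, from 1296.48 to 7212.3 TPM. The first principal component of the tested unigenes held 23.5% of the variance. It was turned so that its high side went with a high level of cuticle protein unigenes. The 3 libraries highest on it are called here the libraries that stood apart. The number 3 was set by choice: the third of them, at 33.68, lay no farther from 0 than untreated replicate 2, at -36.43. They were replicate 2 on D-camphor 41 mg/g and replicate 1 on both EO diets. The summed level of 53 cuticle protein unigenes, none of them at 0 in all libraries, was between 17554.94 and 33411.28 TPM in these 3, and between 342.62 and 8123.83 TPM in the other 12. Values without these 3 libraries are given beside the results they touch most. The sequences of the unigenes are not used here.

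The cellular members were expressed at low to moderate levels. Their means over the 15 libraries had a median of 3.61 TPM and reached from 0.0713 to 30.2 TPM. The 3 highest were cyclin-dependent kinase 10, ribonucleoside-diphosphate reductase subunit M2 B and proliferating cell nuclear antigen, with 30.2, 22.3 and 20.4 TPM. The 5 MCM subunits were close to one another, with means of 4.91 to 6.20 TPM, while the 5 subunits of the origin recognition complex ran lower, from 1.14 to 3.57 TPM. The 128 mobile element rows had a median of 0.290 TPM. Testing needed 1 TPM or more on average, and 42 cellular members and 28 mobile element rows met it, 70 of 12510 tested unigenes.

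**Figure D1:**
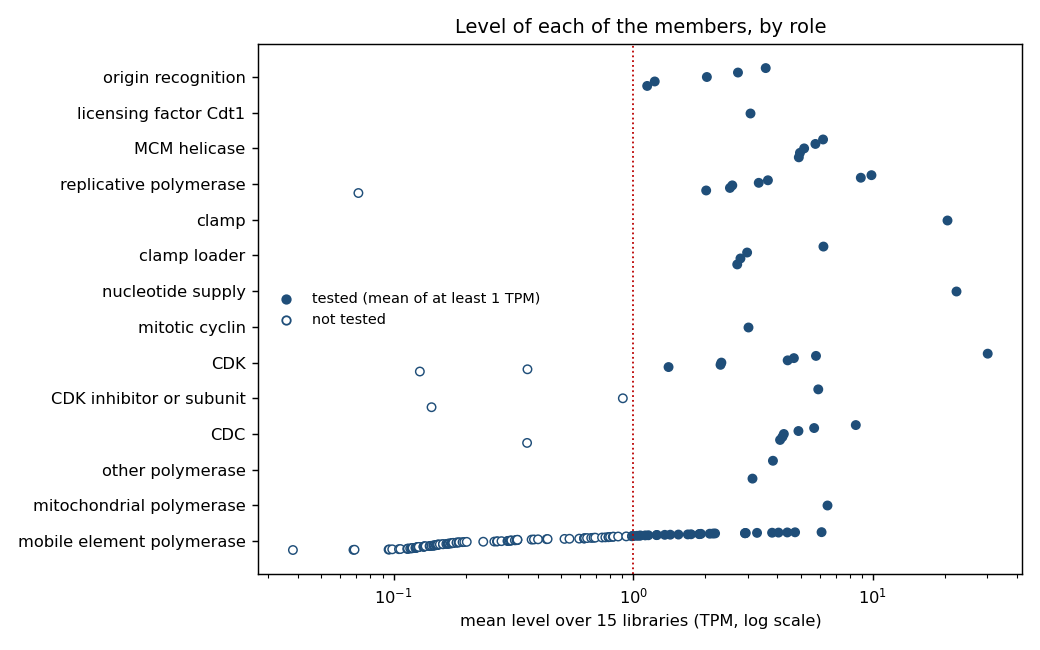
Mean TPM over the 15 libraries (x axis, log scale) of each member, by role (y axis, with members of a role spread vertically in order of level). Filled circles were tested and open circles were not, and the dotted line marks 1 TPM; PCNA (the clamp) and ribonucleoside-diphosphate reductase (nucleotide supply) stand above 20 TPM, while most mobile element rows lie below 1 TPM.

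No member of either kind differed between diets past the threshold. In each comparison the log2 of TPM + 1 was compared in limma, a linear model fitted across all 12510 tested unigenes, with two-sided tests and a Benjamini-Hochberg adjusted p under 0.05 as the call. Against untreated larvae limma called 0 of 70 members on EO 10 mg/g, where it called 0.0719% of all tested unigenes, and 0 of 70 on EO 30 mg/g, where it called 0.184%. It called 0 of 70 on D-camphor 17 mg/g, beside 0.04% of all, and 0 of 70 on D-camphor 41 mg/g, beside 0.016%. Averaged over the 4 terpenoid diets it was 0 of 70 members, beside 0.0879% of all. With so few calls among all unigenes, a count of 0 among 70 is near the background. At an unadjusted p under 0.05, 5, 7, 2 and 3 members passed in the 4 diets in that order, and 3 for the mean of the diets, beside 6.31%, 8.8%, 6.24%, 6.24% and 6.15% of all tested unigenes.

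The fitted differences of the cellular members were small. Over the 4 terpenoid diets together, the fitted log2 fold changes of the 42 tested cellular members against untreated larvae ran from -0.36 to 0.17, with a median of -0.00407, beside -0.0494 over all tested unigenes. The 95% intervals of all 42 stayed within a 2-fold change in either direction, and those of 40 within 1.5-fold. Taken diet by diet, the intervals stayed within 2-fold for 42 of 42 cellular members on EO 10 mg/g, for 41 on EO 30 mg/g, for 42 on D-camphor 17 mg/g and for 42 on D-camphor 41 mg/g. The exception on EO 30 mg/g was cyclin-B2. These fold changes are on the log2(TPM + 1) scale, which understates the change of members near 1 TPM. The median log2 fold change of the cellular members was -0.05 on EO 10 mg/g, 0.02 on EO 30 mg/g, 0.02 on D-camphor 17 mg/g and -0.06 on D-camphor 41 mg/g, beside -0.12, -0.06, 0.03 and -0.04 over all tested unigenes. Scaling the libraries by their median ratios moved the median of all tested unigenes on EO 10 mg/g by 0.14, to 0.02, and that of the cellular members to 0.09, so the sign of the cellular members' median on that diet turned with the scaling. It also turned on D-camphor 17 mg/g, to -0.00529, and for the mean of the 4 diets, to 0.0472.

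**Figure D2:**
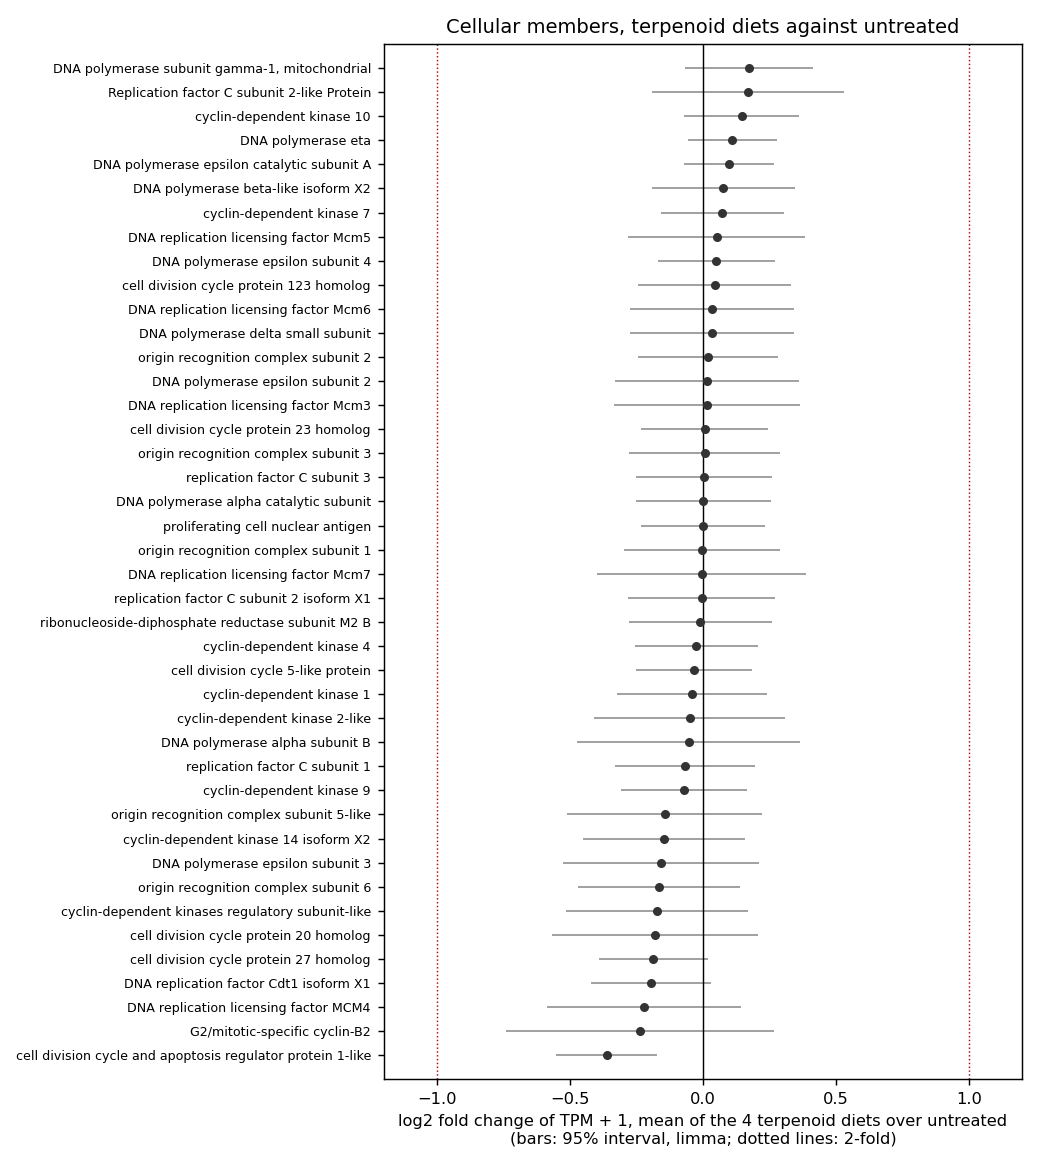
Fitted log2 fold change of TPM + 1 (x axis) of each of the 42 tested cellular members (y axis), mean of the 4 terpenoid diets over untreated, with 95% limma intervals as bars and dotted lines at 2-fold. All intervals lie inside the dotted lines, and the lowest point is cell division cycle and apoptosis regulator protein 1-like at -0.36.

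The origin recognition complex marks the sites where replication starts. Its subunits 1, 2, 3, 5 and 6 were found and all 5 were tested. Subunit 6 (TRINITY_DN9306_c0_g1) differed most from untreated larvae in the complex. It stood at 3.18, 3.45 and 2.62 TPM on EO 10 mg/g, at 3.31, 2.04 and 3.38 TPM on EO 30 mg/g, at 2.26, 3.13 and 3.23 TPM on D-camphor 17 mg/g, at 1.78, 1.34 and 2.22 TPM on D-camphor 41 mg/g and at 2.92, 2.70 and 3.50 TPM in untreated larvae. The 3 values on D-camphor 41 mg/g were below the 3 untreated values, and the other diets overlapped with untreated. The log2 fold change on D-camphor 41 mg/g was -0.55 (SE 0.176, n = 3 each, limma adjusted p = 0.550), and -0.43 (adjusted p = 0.903) without the 3 libraries that stood apart. Against D-camphor 17 mg/g it was -0.48 (limma adjusted p = 0.408). Subunit 5 (TRINITY_DN7854_c0_g1), the most abundant of the complex, had means between 3.22 TPM on D-camphor 41 mg/g and 3.92 TPM in untreated larvae. Subunit 1 (TRINITY_DN9386_c0_g1), an ATPase in the organisms where it was studied, lay between 1.40 and 2.87 TPM in single libraries, with every diet overlapping with untreated.

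Cdt1 (TRINITY_DN2225_c0_g1) brings the MCM helicase to the origin. Its level was 2.23, 2.96 and 2.56 TPM on EO 10 mg/g, 2.53, 2.70 and 3.48 TPM on EO 30 mg/g, 2.74, 3.71 and 3.56 TPM on D-camphor 17 mg/g, 3.29, 2.82 and 3.05 TPM on D-camphor 41 mg/g and 3.13, 3.84 and 3.61 TPM in untreated larvae. On EO 10 mg/g all 3 values lay below the untreated ones, and on the other diets the groups overlapped. The log2 fold change on EO 10 mg/g was -0.34 (SE 0.132, n = 3 each, limma adjusted p = 0.713), -0.27 without replicate 1 of that diet, which stood apart, and -0.21 with median-ratio scaling.

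Mcm3, MCM4, Mcm5, Mcm6 and Mcm7, subunits of the helicase that unwinds DNA at the fork, were the only MCM members found by the rule. Mcm7 (TRINITY_DN2077_c0_g2), the highest, was at 4.27, 7.26 and 5.70 TPM on EO 10 mg/g, at 4.86, 6.12 and 8.67 TPM on EO 30 mg/g, at 4.89, 8.61 and 7.41 TPM on D-camphor 17 mg/g, at 5.79, 5.08 and 5.87 TPM on D-camphor 41 mg/g and at 5.24, 7.41 and 5.83 TPM in untreated larvae. Mcm5 (TRINITY_DN8249_c0_g1) was at 4.22, 7.26 and 5.28 TPM on EO 10 mg/g, at 4.47, 5.34 and 7.82 TPM on EO 30 mg/g, at 5.74, 7.85 and 6.28 TPM on D-camphor 17 mg/g, at 5.57, 4.66 and 5.42 TPM on D-camphor 41 mg/g and at 5.34, 5.99 and 5.18 TPM in untreated larvae. For both subunits the replicates of 1 diet spread over more than the diets' means did, and every diet overlapped with untreated. MCM4 (TRINITY_DN7214_c0_g1) was the only subunit to separate from untreated. It was at 3.45, 6.05 and 4.09 TPM on EO 10 mg/g, at 3.66, 4.46 and 7.20 TPM on EO 30 mg/g, at 4.52, 6.19 and 5.08 TPM on D-camphor 17 mg/g, at 4.53, 3.88 and 4.37 TPM on D-camphor 41 mg/g and at 6.43, 5.64 and 4.94 TPM in untreated larvae. On D-camphor 41 mg/g all 3 values lay below the untreated ones, with a log2 fold change of -0.34 (SE 0.212, n = 3 each, limma adjusted p = 0.955), and -0.29 without the 3 libraries that stood apart.

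The 5 MCM subunits varied together from library to library, most of all on the EO diets. On EO 10 mg/g all 5 were highest in replicate 2 and lowest in replicate 1, and the high value was 1.62 to 1.76 times the low one. On EO 30 mg/g all 5 were highest in replicate 3 and lowest in replicate 1, with ratios of 1.63 to 1.97. On D-camphor 17 mg/g 4 were highest in replicate 2 and all 5 were lowest in replicate 1, with ratios of 1.22 to 1.76. The other groups were less uniform: on D-camphor 41 mg/g 3 were highest in replicate 3 and 4 lowest in replicate 2, with ratios of 1.16 to 1.33, and in untreated larvae 4 were highest in replicate 2 and 3 lowest in replicate 1, with ratios of 1.16 to 1.41. Between diets, the highest mean of a subunit was 1.10 to 1.33 times its lowest. The share of a subunit's sum of squares that lay between the 5 diets had a median of 13.4%, where an equal split over the degrees of freedom would give 28.6%. The same median was 20.9% for the 42 cellular members and 31.6% for all tested unigenes. Without the 3 libraries that stood apart it was 23.8% for the MCM subunits, 27.7% for the cellular members and 36.1% for all, where an equal split would give 36.4%.

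**Figure D3:**
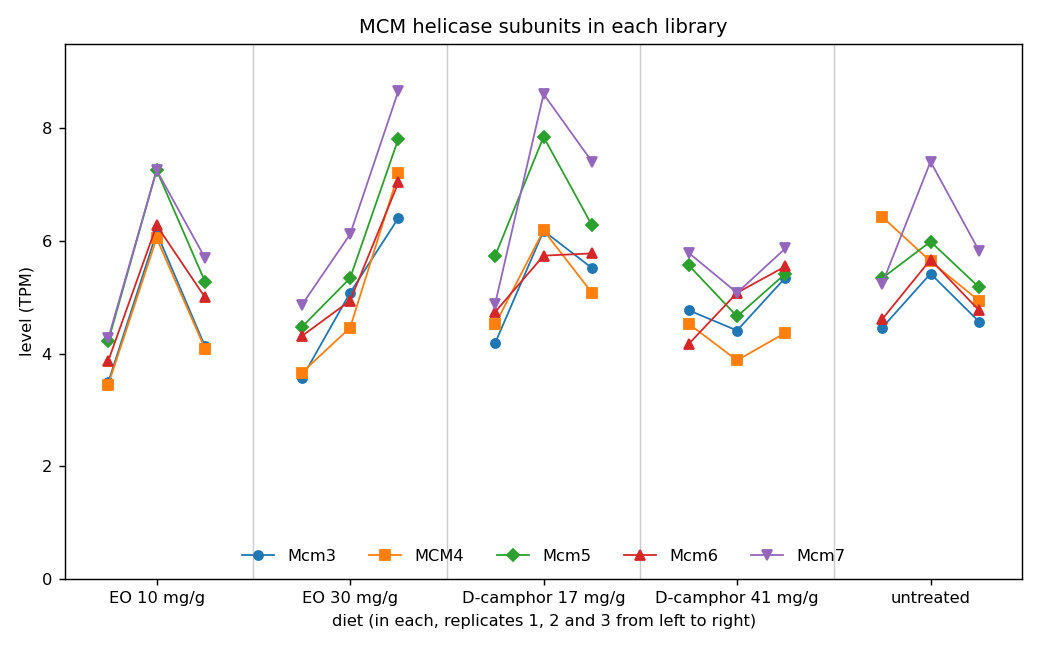
Level in TPM (y axis) of the 5 MCM subunits in the 15 libraries, grouped by diet (x axis). Lines only join the values of 1 subunit within a diet; all 5 are lowest in replicate 1 on EO 10 mg/g, EO 30 mg/g and D-camphor 17 mg/g, and MCM4 alone separates from untreated, on D-camphor 41 mg/g.

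Taking each library's deviation from its diet's mean, the 10 pairs of MCM subunits had a median correlation of 0.884 over the 15 libraries, with the lowest at 0.784. The median over all pairs of tested unigenes was 0.111, over pairs of cellular members 0.332, and over pairs of mobile element rows 0.261. These are descriptions, since the values of a library share its RNA, its preparation and its sum to a fixed total. Without the 3 libraries that stood apart, the MCM median was 0.832 and the lowest pair 0.666, beside 0.158 over all tested unigenes. In these 3 libraries the summed MCM level was low, between 19.3 and 23.1 TPM, against 24.1 to 37.1 TPM in the other 12, while the cuticle list was high as given above. The part of the cuticle difference in the MCM levels was not tested. D-camphor 41 mg/g replicate 3, the highest of the other 12 in cuticle level with 8123.83 TPM, had an MCM sum of 26.6 TPM. D-camphor 17 mg/g replicate 1, the next in cuticle level with 4896 TPM, had the lowest MCM sum of the 12, 24.1 TPM. The fat body list was lowest in EO 10 mg/g replicate 1 and highest in EO 30 mg/g replicate 3. These libraries also held the lowest and the highest MCM sum, 19.3 and 37.1 TPM. EO 30 mg/g replicate 1 had a fat body sum of 4488.86 TPM, above every untreated library, but an MCM sum of 20.9 TPM. The part of the fat body difference in the MCM levels was not tested.

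The other members differed widely in how far they followed the MCM subunits across libraries. Against the mean deviation of the MCM subunits, Pearson's r over the 15 libraries had a median of 0.570 over the other 37 tested cellular members, from -0.742 to 0.901, with 29 above 0. Over the 19 of these with a role in chromosome replication the median was 0.651. Without the 2 libraries farthest from the median MCM deviation the medians were 0.42 for the 37 and 0.50 for the 19. The same r over all tested unigenes is not given here. The lowest of the 19 was -0.547, for polymerase epsilon catalytic subunit A. Other low values among these 19 included 0.251 for origin recognition complex subunit 3, 0.207 for the second unigene of replication factor C subunit 2, 0.0608 for polymerase epsilon subunit 2 and -0.112 for epsilon subunit 4. The 5 highest of the 37, picked by this value, follow. It was 0.901 for PCNA (TRINITY_DN4983_c0_g1), with Spearman's rho at 0.874. For Cdt1 (TRINITY_DN2225_c0_g1) r was 0.896, for origin recognition complex subunit 1 (TRINITY_DN9386_c0_g1) 0.885, for cyclin-dependent kinase 2-like (TRINITY_DN9178_c0_g1) 0.880 and for ribonucleoside-diphosphate reductase (TRINITY_DN7881_c0_g1) 0.873. Without the 3 libraries that stood apart these 5 values were 0.922, 0.866, 0.832, 0.851 and 0.849. Without the 2 libraries farthest from the median MCM deviation they were 0.820, 0.845, 0.810, 0.765 and 0.742. Subunit 6 of the origin recognition complex (TRINITY_DN9306_c0_g1) had r = 0.328 over all libraries and 0.752 without the 3 that stood apart, and polymerase alpha subunit B (TRINITY_DN17727_c0_g2) likewise 0.328 and 0.747, so their likeness to the MCM subunits rested on which libraries were used.

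PCNA, the ring that slides along DNA with the polymerase, had 18.08, 22.13 and 18.72 TPM on EO 10 mg/g, 21.29, 22.07 and 28.73 TPM on EO 30 mg/g, 16.95, 21.56 and 21.93 TPM on D-camphor 17 mg/g, 18.14, 17.84 and 17.84 TPM on D-camphor 41 mg/g and 18.96, 21.58 and 20.29 TPM in untreated larvae. Ribonucleoside-diphosphate reductase subunit M2 B, of the enzyme that makes deoxynucleotides from ribonucleotides, had 18.82, 24.43 and 19.42 TPM on EO 10 mg/g, 20.27, 21.24 and 30.17 TPM on EO 30 mg/g, 22.02, 28.01 and 24.81 TPM on D-camphor 17 mg/g, 21.59, 18.94 and 18.31 TPM on D-camphor 41 mg/g and 23.32, 22.42 and 21.01 TPM in untreated larvae. Both had their highest value in EO 30 mg/g replicate 3, the library in which the MCM sum was also highest, at 37.1 TPM. The values of PCNA on D-camphor 41 mg/g lay below all 3 untreated values, with a log2 fold change of -0.17 (SE 0.136, n = 3 each, limma adjusted p = 0.998). No other diet separated from untreated in either gene.

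The clamp loader, replication factor C, opens PCNA and closes it around DNA. Its subunit 3 (TRINITY_DN13019_c0_g1) was at 5.92, 7.01 and 5.81 TPM on EO 10 mg/g, at 6.36, 6.04 and 7.72 TPM on EO 30 mg/g, at 5.22, 7.73 and 5.81 TPM on D-camphor 17 mg/g, at 5.27, 6.43 and 5.44 TPM on D-camphor 41 mg/g and at 5.25, 6.95 and 6.40 TPM in untreated larvae. Subunit 1, the large subunit (TRINITY_DN16976_c0_g1), averaged 2.99 TPM. Subunit 2 was described in 2 unigenes, TRINITY_DN41948_c0_g1 with a mean of 2.80 TPM and TRINITY_DN2209_c0_g1 with 2.72 TPM. If these are pieces or near copies of the same gene, reads could have been split between them, so both values are uncertain. All 4 overlapped with untreated on every diet.

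Of the replicative polymerases, polymerase epsilon makes the leading strand, delta the lagging strand, and alpha, with primase, starts each new strand. Among them epsilon subunit 3 and the epsilon catalytic subunit A were the most abundant, with means of 9.87 and 8.91 TPM, and the alpha catalytic subunit the least abundant of the 7 tested, with 2.02 TPM. Catalytic subunit A (TRINITY_DN11571_c0_g2) had 8.46, 8.16 and 9.15 TPM on EO 10 mg/g, 11.16, 9.12 and 9.51 TPM on EO 30 mg/g, 8.97, 8.37 and 9.37 TPM on D-camphor 17 mg/g, 8.45, 9.24 and 8.60 TPM on D-camphor 41 mg/g and 8.15, 7.93 and 9.06 TPM in untreated larvae. It was the steadiest of the replicative polymerase subunits, with a residual SD around the diet means of 0.0925 on the log2 scale, beside a median of 0.189 for cellular members and 0.264 for all tested unigenes. Its 3 values on EO 30 mg/g were above all untreated values, by a log2 fold change of 0.22 (SE 0.0979, n = 3 each, limma adjusted p = 0.563), and by 0.14 without EO 30 mg/g replicate 1, which held the highest value and is among the libraries that stood apart.

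Epsilon catalytic subunit A did not follow the MCM subunits. Its r with their mean deviation was -0.547 over 15 libraries and -0.431 without the 3 that stood apart. Epsilon subunit 3 (TRINITY_DN16186_c0_g1), had r = 0.699, which was 0.557 without those 3 libraries and 0.431 without the 2 farthest from the median MCM deviation. It was at 7.45, 13.85 and 8.78 TPM on EO 10 mg/g, at 8.29, 8.49 and 11.86 TPM on EO 30 mg/g, at 11.48, 10.05 and 9.12 TPM on D-camphor 17 mg/g, at 8.87, 7.19 and 10.32 TPM on D-camphor 41 mg/g and at 8.91, 11.96 and 11.48 TPM in untreated larvae. The highest value was EO 10 mg/g replicate 2, which was also the highest of its diet for all MCM subunits. Epsilon subunit 4 (TRINITY_DN6393_c0_g2) had 4.07, 3.95 and 4.30 TPM on EO 10 mg/g, all above the untreated values of 3.33, 3.36 and 3.83 TPM, with a log2 fold change of 0.18 and a limma adjusted p of 0.718.

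The polymerases outside chromosome replication are set apart here, and the 3 tested overlapped with untreated on every diet. Polymerase gamma-1 (TRINITY_DN1345_c0_g2), which copies the mitochondrial genome, had 7.04, 6.48 and 5.94 TPM on EO 10 mg/g, 7.60, 5.86 and 8.06 TPM on EO 30 mg/g, 6.49, 6.52 and 5.91 TPM on D-camphor 17 mg/g, 6.77, 5.86 and 6.98 TPM on D-camphor 41 mg/g and 5.66, 4.75 and 7.0 TPM in untreated larvae. The largest log2 fold change was 0.27 on EO 30 mg/g (limma adjusted p = 0.590), and dropping untreated replicate 2 gave 0.15, dropping untreated replicate 3 gave 0.39. Its r with the MCM subunits was -0.0282. The repair polymerase described as beta-like (TRINITY_DN16231_c0_g1) and polymerase eta (TRINITY_DN2928_c0_g1), which copies past damaged bases, averaged 3.83 and 3.15 TPM.

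Mitosis is represented by a few members. Cyclin-dependent kinase 1 (TRINITY_DN2909_c0_g1), cyclin-B2 (TRINITY_DN5056_c0_g1) and cell division cycle protein 20 (TRINITY_DN11801_c0_g1) were set side by side after their values were seen, so their likeness is a description of the genes picked. Cyclin-B2 had 2.71, 3.63 and 2.51 TPM on EO 10 mg/g, 1.61, 2.14 and 3.02 TPM on EO 30 mg/g, 1.99, 4.39 and 2.21 TPM on D-camphor 17 mg/g, 2.66, 3.50 and 3.69 TPM on D-camphor 41 mg/g and 2.03, 5.74 and 3.25 TPM in untreated larvae. The highest library for all 3 genes was untreated replicate 2, with 5.55 TPM of the kinase, 5.74 TPM of cyclin-B2 and 6.71 TPM of CDC20.

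The untreated group held nearly the whole range of cyclin-B2, and every diet overlapped with it. Its log2 fold change on EO 30 mg/g was -0.47, with a 95% interval down to -1.10 (SE 0.293, n = 3 each, limma adjusted p = 0.632). Dropping untreated replicate 1 gave -0.74, dropping untreated replicate 2 gave -0.16, and dropping the 3 libraries that stood apart gave -0.32. The 3 pairs among these genes had a median r of 0.912 over deviations from the diet means, and 0.946 without the 3 libraries that stood apart. With the anaphase-promoting complex subunits CDC23 and CDC27 added, the 10 pairs had a median of 0.632, from 0.477 to 0.946, and the 15 pairs of members named cell division cycle had 0.343, with the lowest at -0.406. With the mean deviation of the MCM subunits, r was 0.772 for CDC20, 0.668 for cyclin-B2 and 0.622 for the kinase, and without the 3 libraries 0.838, 0.729 and 0.810.

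**Figure D4:**
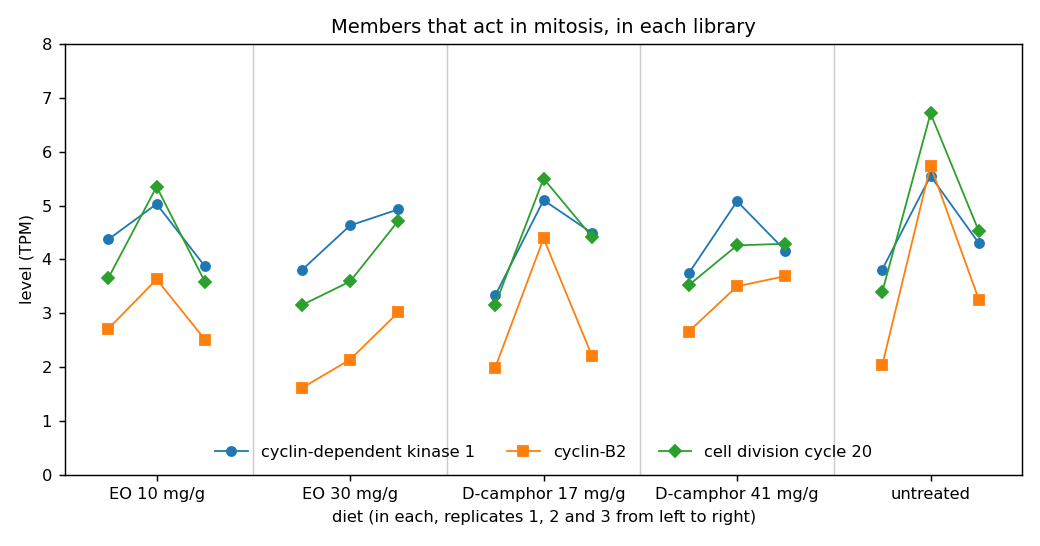
Level in TPM (y axis) of 3 members that act in mitosis in the 15 libraries, grouped by diet (x axis); lines only join the values of 1 gene within a diet. Cyclin-B2 spans 2.03 to 5.74 TPM within the untreated group alone, and all 3 genes are highest in untreated replicate 2.

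Cyclin-dependent kinases need a cyclin partner to be active, and not all of them drive the cell cycle. CDK10 (TRINITY_DN8152_c0_g1), a kinase linked in mammals to the transcription factor ETS2, was the most abundant cellular member. It had 32.75, 27.60 and 34.32 TPM on EO 10 mg/g, 39.82, 32.22 and 31.92 TPM on EO 30 mg/g, 29.69, 27.30 and 29.52 TPM on D-camphor 17 mg/g, 26.79, 30.78 and 26.86 TPM on D-camphor 41 mg/g and 26.74, 25.14 and 31.20 TPM in untreated larvae. On EO 30 mg/g all 3 values exceeded the untreated ones, by a log2 fold change of 0.31 (SE 0.126, n = 3 each, limma adjusted p = 0.519), and 0.21 without the 3 libraries that stood apart. It ran against the MCM subunits within diets, with r = -0.742 over 15 libraries and -0.648 without those 3.

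CDK4 (TRINITY_DN3649_c0_g1), which acts with cyclin D in G1, averaged 5.79 TPM and lay between 4.33 and 6.50 TPM in single libraries. CDK9 (TRINITY_DN4192_c0_g1), a kinase of transcription elongation, averaged 4.68 TPM, and CDK7, which activates other CDKs and acts in transcription initiation, 2.33 TPM. Neither is specific to dividing cells. A small CDK-binding protein, described as cyclin-dependent kinases regulatory subunit-like (TRINITY_DN8331_c0_g1), averaged 5.92 TPM, with 4.94 to 7.56 TPM on EO 10 mg/g, 4.84 to 6.75 TPM on EO 30 mg/g, 4.40 to 5.40 TPM on D-camphor 17 mg/g, 5.33 to 8.03 TPM on D-camphor 41 mg/g and 4.96 to 8.13 TPM in untreated larvae. None of these 4 separated from untreated on any diet.

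The name cell division cycle covers proteins with quite different work. When the 4 terpenoid diets were averaged, the lowest adjusted p of any member belonged to one of these: cell division cycle and apoptosis regulator protein 1-like (TRINITY_DN7300_c0_g1), whose mammalian namesake is a coactivator of transcription. It had 7.0, 7.88 and 7.61 TPM on EO 10 mg/g, 7.30, 8.35 and 9.16 TPM on EO 30 mg/g, 8.23, 8.88 and 8.63 TPM on D-camphor 17 mg/g, 8.59, 7.0 and 7.17 TPM on D-camphor 41 mg/g and 9.72, 10.20 and 11.70 TPM in untreated larvae. All 12 terpenoid libraries were below all 3 untreated libraries. No other of the 70 tested members had this order, which 0.312% of all tested unigenes had, 39 in number. The opposite order, all 12 above, was found in 0 members and in 0.16% of all tested unigenes.

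The level of this coactivator averaged 7.497 ± 0.451 TPM on EO 10 mg/g, 8.27 ± 0.933 TPM on EO 30 mg/g, 8.58 ± 0.328 TPM on D-camphor 17 mg/g, 7.59 ± 0.873 TPM on D-camphor 41 mg/g and 10.5 ± 1.03 TPM in untreated larvae (SD, n = 3 each). For the mean of the 4 terpenoid diets the log2 fold change was -0.36 (SE 0.0873, 95% interval -0.55 to -0.17), with an unadjusted limma p of 0.00132 that became 0.249 after adjustment. It therefore failed the correction, and over the alternatives tried its adjusted p lay between 0.164 and 0.628. Without the 3 libraries that stood apart it was -0.32 (adjusted p = 0.357). By diet the log2 fold change was -0.44, -0.32, -0.27 and -0.43 in the order above, with limma adjusted p of 0.642, 0.451, 0.723 and 0.337. These 4 comparisons share the untreated libraries.

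Cell division cycle protein 27 (TRINITY_DN369_c0_g1), a subunit of the anaphase-promoting complex that was named after its values were seen, had 2.89, 4.25 and 3.61 TPM on EO 10 mg/g, 3.18, 3.95 and 4.0 TPM on EO 30 mg/g, 4.50, 5.07 and 4.33 TPM on D-camphor 17 mg/g, 4.23, 4.50 and 4.24 TPM on D-camphor 41 mg/g and 4.39, 4.81 and 4.98 TPM in untreated larvae. Both EO groups lay below untreated and both D-camphor groups overlapped with it. The log2 fold change was -0.33 on EO 10 mg/g (limma adjusted p = 0.713) and -0.29 on EO 30 mg/g (adjusted p = 0.534), and without the 3 libraries that stood apart -0.22 and -0.20. The difference between the EO and the D-camphor diets was -0.24 (SE 0.0848, limma adjusted p = 0.440), and -0.13 both without those libraries and with median-ratio scaling.

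Cell division cycle protein 23, another subunit of that complex, averaged 4.10 TPM. Cell division cycle 5-like (TRINITY_DN13809_c1_g1), a splicing factor in the species where it was studied, averaged 5.69 TPM, and the CDC123 protein (TRINITY_DN19424_c0_g1), needed in yeast to assemble the translation initiation factor eIF2, 4.89 TPM. Cell division cycle 5-like had 5.27, 5.13 and 4.73 TPM on EO 10 mg/g and 4.92, 4.85 and 6.18 TPM on EO 30 mg/g, against 5.50, 6.18 and 5.50 TPM on D-camphor 17 mg/g and 6.23, 6.62 and 6.73 TPM on D-camphor 41 mg/g. The EO and D-camphor diets differed by a log2 fold change of -0.21 (SE 0.0898, limma adjusted p = 0.461), and by -0.0890 with median-ratio scaling. Untreated larvae, with 5.03, 5.26 and 7.25 TPM, covered the range of the D-camphor diets. They overlapped with both EO diets, whose lowest values, 4.73 and 4.85 TPM, were below all untreated ones.

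Few cellular members lay wholly outside the untreated range. On EO 10 mg/g 3 of 42 were below all untreated values and 1 was above, beside 8.51% and 1.44% of all tested unigenes. On EO 30 mg/g 2 were below and 2 above, beside 5.64% and 4.56%. On D-camphor 17 mg/g 1 was below and 0 above, beside 2.75% and 8.35%, and on D-camphor 41 mg/g 4 were below and 0 above, beside 6.54% and 3.41%. Of the 4 on D-camphor 41 mg/g, 3 belong to replication (origin recognition complex subunit 6, MCM4 and PCNA), and the other is the coactivator described above. Most of the 42 belong to replication, 5 MCM subunits and 19 others, so no excess is read from this.

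Dose and additive were compared directly as well. For EO 30 mg/g against EO 10 mg/g limma called 0 of 70 members, beside 0.00799% of all tested unigenes, and 0 members passed at an unadjusted p under 0.05, beside 4.97% of all. For D-camphor 41 mg/g against D-camphor 17 mg/g it called 0 of 70, beside 0.0% of all, with 1 member, origin recognition complex subunit 6, at an unadjusted p under 0.05, beside 9.51% of all. For both EO diets against both D-camphor diets, whose doses differ, it called 0 of 70, beside 0.048%, with 9 members at an unadjusted p under 0.05, beside 10.6% of all. The test of whether the dose step differed between the additives called 0 of 70, beside 0.0%, with 3 at an unadjusted p under 0.05, beside 11.6%. A test of any difference between the 5 diets called 0 of 70, beside 0.0719%, with 4 at an unadjusted p under 0.05, beside 8.83%.

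The 3 members with a low unadjusted p for the difference between dose steps included PCNA (TRINITY_DN4983_c0_g1) and ribonucleoside-diphosphate reductase (TRINITY_DN7881_c0_g1). Between doses, PCNA differed by a log2 fold change of 0.27 for the EO step and -0.15 for the D-camphor step, and the difference of the steps was 0.42 (SE 0.192, limma adjusted p = 0.429). The reductase differed by 0.17 for the EO step and by -0.33 for the D-camphor step, with a difference of 0.50 (SE 0.222, limma adjusted p = 0.412). Without EO 30 mg/g replicate 3 the EO step was 0.14 for PCNA and -0.0001687 for the reductase, and the difference of the steps 0.29 and 0.33. All 5 MCM subunits had a positive EO step, between 0.0586 and 0.156, and a negative D-camphor step, with a median difference of 0.35, beside 0.12 over all tested unigenes. The sign of their EO step rested on single libraries: without EO 30 mg/g replicate 3 it was positive in 0 of 5, with a median of -0.0880, and without EO 10 mg/g replicate 1 also in 0 of 5, with a median of -0.0376. Median-ratio scaling left 4 of 5 positive, and without D-camphor 17 mg/g replicate 2 the D-camphor step was negative in 4 of 5. The median difference of the steps lay between 0.14 and 0.52 when libraries were left out in turn. Median-ratio scaling took the median of all tested unigenes for this difference to -0.000599, a shift of -0.12. It took the MCM median of this difference to 0.21, with 5 of 5 subunits positive. Groups were apart without overlap for 1 of 42 cellular members in the EO step, polymerase beta-like (TRINITY_DN16231_c0_g1), which was higher at 30 mg/g, beside 6.63% of all tested unigenes, and 0 were lower, beside 1.92%. In the D-camphor step 3 of 42 were lower at 41 mg/g without overlap, beside 15.8% of all. These were the reductase, Mcm5 and origin recognition complex subunit 6. Another 2 were higher without overlap, beside 5.61% of all: cyclin-dependent kinase 14 and cell division cycle 5-like.

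Mobile element rows were low and uneven between libraries. Their families were jockey with 56 rows, transposon BS with 48, X-element with 21 and 3 others. Of the 128, 100 were below the mean of 1 TPM needed for testing, with a median of 0.177 TPM, and 51 of these were listed at 0 in at least 1 library. The reads of such repeated elements may be shared between copies, so the level of any row is uncertain. The summed level of all 128 was 67.64, 85.56 and 96.46 TPM on EO 10 mg/g, 53.28, 89.43 and 92.87 TPM on EO 30 mg/g, 88.41, 115.49 and 106.0 TPM on D-camphor 17 mg/g, 111.86, 103.41 and 82.77 TPM on D-camphor 41 mg/g and 99.8, 95.37 and 127.82 TPM in untreated larvae. All 3 sums on EO 30 mg/g and 2 of 3 on EO 10 mg/g were below every untreated sum. So were 88.41 TPM on D-camphor 17 mg/g and 82.77 TPM on D-camphor 41 mg/g, each the lowest of its diet. Replicate 1, among the libraries that stood apart, was the lowest of either EO diet.

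In the 28 tested mobile element rows the median log2 fold change was -0.28 on EO 10 mg/g, -0.22 on EO 30 mg/g, -0.10 on D-camphor 17 mg/g and -0.05 on D-camphor 41 mg/g. The counts of values below 0 were 22, 25, 16 and 18 of 28 in the same order, beside 70.4%, 59.5%, 44.7% and 58.2% of all tested unigenes. With median-ratio scaling they were 17, 25, 16 and 15 of 28, beside 46.55%, 45.63%, 49.73% and 49.86% of all tested unigenes. Without the 3 libraries that stood apart the medians were -0.19, -0.12, -0.10 and -0.19. With median-ratio scaling the medians were -0.15, -0.16, -0.12 and -0.02, all below 0. Of the 28, 5 lay below all untreated values on EO 10 mg/g (17.9%, beside 8.51% of all) and 6 on EO 30 mg/g (21.4%, beside 5.64%). On D-camphor 17 mg/g and 41 mg/g it was 2 each (7.14%, beside 2.75% and 6.54%). A low row can reach the mean of 1 TPM through high untreated values, so the filter may shape these medians and counts. Without a filter the median over all 128 rows was -0.0817 on EO 10 mg/g, beside -0.0704 over all unigenes. On EO 30 mg/g it was -0.0954, beside -0.0494. The unfiltered medians on D-camphor are not given here. Their residual SD had a median of 0.395 on the log2 scale, and the 95% intervals of 14 to 19 of the 28 stayed within 2-fold of untreated, depending on the diet. The precision for these rows was therefore lower than for the cellular members.

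A transposon BS row, TRINITY_DN7296_c0_g1, had the lowest adjusted p of the members in the comparisons with untreated larvae. It had 4.54, 2.75 and 4.46 TPM on EO 10 mg/g, 2.67, 2.74 and 3.01 TPM on EO 30 mg/g, 4.77, 5.76 and 6.07 TPM on D-camphor 17 mg/g, 5.51, 3.98 and 3.20 TPM on D-camphor 41 mg/g and 4.21, 6.74 and 10.67 TPM in untreated larvae. Only the EO 30 mg/g group lay wholly below untreated, with a log2 fold change of -1.03 (SE 0.260, n = 3 each, limma adjusted p = 0.239). Leaving out single libraries moved this value between -1.32 and -0.74, and over all alternatives its adjusted p lay between 0.0558 and 0.573.

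Another transposon BS row, TRINITY_DN7866_c0_g2, had 1.19, 1.15 and 1.08 TPM on EO 10 mg/g, 0.68, 0.79 and 1.22 TPM on EO 30 mg/g, 0.96, 3.58 and 2.29 TPM on D-camphor 17 mg/g, 0.81, 2.65 and 1.51 TPM on D-camphor 41 mg/g and 2.19, 2.70 and 3.36 TPM in untreated larvae. Both EO groups were below untreated, and both D-camphor groups overlapped with it. The log2 fold change was -0.80 on EO 10 mg/g (limma adjusted p = 0.713) and -0.98 on EO 30 mg/g (adjusted p = 0.349). The most abundant row, TRINITY_DN11516_c0_g2, had values from 2.0 to 10.37 TPM and overlapped with untreated on every diet.

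The members with the largest fitted fall and rise on D-camphor 17 mg/g spread widely between replicates, with residual SDs of 0.646 and 0.617. The transposon BS row TRINITY_DN10061_c0_g1 had 0.47, 0.52 and 3.18 TPM on EO 10 mg/g, 0.44, 0.64 and 0 TPM on EO 30 mg/g, 0.51, 0 and 0.56 TPM on D-camphor 17 mg/g, 4.18, 1.43 and 0.46 TPM on D-camphor 41 mg/g and 3.0, 1.06 and 2.33 TPM in untreated larvae. It was below all untreated values on EO 30 mg/g and D-camphor 17 mg/g, each with a log2 fold change of -1.18 and limma adjusted p of 0.532 and 0.723. With a pseudocount of 0.1 these were -2.59 on both diets, and the row is listed at 0 in 1 library of each. The transposon BS row TRINITY_DN5659_c0_g1 had 5.54, 5.85 and 1.59 TPM on D-camphor 17 mg/g, against 2.61, 2.15 and 1.68 TPM in untreated larvae. Its log2 fold change of 0.64 was the largest positive one of the members on that diet (limma adjusted p = 0.945), and 1 of its 3 values lay below all untreated ones. It was 0.40 without replicate 2 and 1.10 without replicate 3 of that diet.

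**Figure D5:**
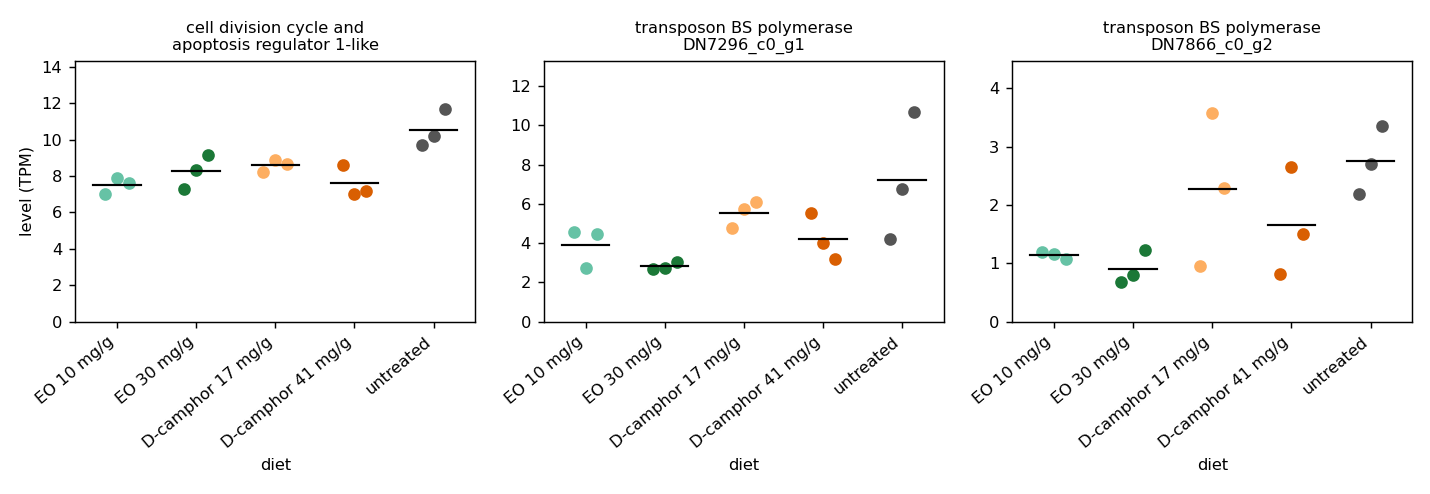
Level in TPM (y axis) of 3 members in each library by diet (x axis); points are libraries and bars are means of 3. For the coactivator all 12 terpenoid values (7.0 to 9.16 TPM) lie below the untreated ones (9.72 to 11.70 TPM), while the transposon BS rows separate from untreated only on EO diets.

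Of the cellular members, 6 did not reach the level for testing. Cyclin-dependent kinase inhibitor 1B-like (TRINITY_DN6592_c0_g1), of a family that holds cells in G1, averaged 0.905 TPM. Cyclin-dependent kinase 8, a kinase of the Mediator complex of transcription, and cell division cycle-associated protein 7-like averaged 0.362 and 0.361 TPM. The other 3 were a polymerase delta subunit 2-like, a cyclin-dependent kinase 6-like and another regulatory subunit-like row, at 0.0713, 0.129 and 0.144 TPM. These 3 were described by their likeness to a brachiopod, an acorn worm and a scorpion, as were 37 of the mobile element rows by species that are not insects, and they were listed at 0 in some libraries.

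A wider list of 71 unigenes outside the rule, found by replication and cell cycle words in the descriptions, held 57 that were tested. The words do not exclude genes with other work, such as the probable RNA helicase spindle-E, with 8.57 TPM, and retinoblastoma-binding protein 5. Its most abundant members were a spindle pole body component with 16.9 TPM, geminin, the inhibitor of Cdt1, with 12.2 TPM, and anaphase-promoting complex subunit 11-like with 10.9 TPM. Limma called 0 of the 57 in each comparison, beside 0.0% to 0.184% of all tested unigenes. On EO 10 mg/g 2 of the 57 had an unadjusted p under 0.05, beside 6.31% of all. The unadjusted counts on the other diets are not given here. The median log2 fold change was -0.11 on EO 10 mg/g, -0.08 on EO 30 mg/g, -0.04 on D-camphor 17 mg/g and -0.04 on D-camphor 41 mg/g. Over all tested unigenes it was -0.12, -0.06, 0.03 and -0.04 in the same order. On EO 10 mg/g 52 of the 57 values were below 0, beside 70.4% of all tested unigenes, but 22 of the 57 with median-ratio scaling, beside 46.5% of all, so no direction is given for this list.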

How the data were processed

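The authors deposited 1 table of TPM values (length-normalised, each library brought to the same sum, 2 decimals) for 34486 unigenes and 15 libraries; checked here, its columns sum to between 999999.16 and 1000001.21. Not given in the sources used here are the aligner, the assembler and the counter. TPM holds no read counts, so depth and counting precision are unknown, and the smallest step is 0.01 TPM. Per the labels' protocols, RNA extraction used TRIzol and library preparation a NEBNext kit. Columns were matched to libraries by the letter and replicate number of the titles, groups were taken from the treatment label, and every column was used.

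TPM was transformed to log2(TPM + 1). The 12510 unigenes that averaged 1 TPM or more were fitted together in limma 3.58.1 (R 4.3.3), with 1 mean per diet, 10 residual degrees of freedom and a variance trend, and p-values were adjusted over all of them by the Benjamini-Hochberg method. The fitting code was run on simulated data as a check of the code only, and no result above rests on it. Replicate numbers were not used to pair the libraries: over 30 same-numbered pairs the correlation of deviations from diet means had a median of 0.0242. Between the EO diets it was 0.559, 0.114 and 0.108 for replicates 1, 2 and 3. A differently numbered pair there, EO 10 mg/g replicate 2 with EO 30 mg/g replicate 3, had 0.359.

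Members, roles and lists were chosen with earlier results of these data known. The naming rule took the 3 tested members of each role with the highest mean, any called member, the 3 largest differences each way from untreated larvae per diet and the 5 members with the largest residual SD. Not all mobile element rows it took are described above. Left out were, among others, TRINITY_DN10171_c0_g1, the largest rise on EO 10 mg/g (log2 fold change 0.36), and TRINITY_DN2661_c0_g1, with the largest residual SD. Also left out were the largest rise and fall on D-camphor 41 mg/g, TRINITY_DN15146_c0_g1 (0.56) and TRINITY_DN10589_c0_g1 (-0.64). Members named beyond it, such as Mcm3, MCM4, CDK1, CDK2-like, CDK7, CDK14, CDC20, CDC23, CDC27 and the untested ones, were chosen after their values were seen. Cdt1, matched by the phrase replication factor C, was given a role of its own after its description was seen. Correlations were taken over each library's deviation from its diet mean, as descriptions. Alternatives tried were median-of-ratios scaling, 0.1 as pseudocount, the filter dropped or raised to 5 TPM, a replicate block, fits of only the groups compared, and dropping each library in turn. Dropping together the 3 libraries that stood apart was chosen after seeing the data.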

Additional observations from a re-analysis of the deposited data

How the results depend on the processing

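The count of 0 members called held in every comparison under every alternative run, except on D-camphor 17 mg/g without a filter. There 1 of 176 members was called, beside 45 of all 34486 unigenes. It was the X-element row TRINITY_DN29926_c0_g1 (limma adjusted p = 0.0486). This row had 0.61, 0.66 and 0.34 TPM on that diet and was listed at 0 in all untreated libraries. The replicate block also left 0 members called in each comparison. Every diet holds the same replicate numbers, so the block could change the calls but no log2 fold change. That the medians stayed the same under the block is therefore no check of them. The libraries share only a number, 6 of 15 correlated best with a library of their own number, and no paired reading is given. Over all tested unigenes the count of calls depended more on the choices: on EO 30 mg/g it was 23, but 12 with the block, 14 with median-of-ratios scaling and 57 without a filter. Over the alternatives it lay between 1 and 42 on EO 10 mg/g, where it was 9, between 8 and 57 on EO 30 mg/g, between 1 and 45 on D-camphor 17 mg/g, where it was 5, and between 0 and 51 on D-camphor 41 mg/g, where it was 2. Fits of only the groups compared were not run for the mean of the 4 diets and the test of any difference, which use every group.

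Median log2 fold changes that moved by more than the spread between libraries were as follows. With median-of-ratios scaling, the median on EO 10 mg/g was 0.0534 for all members and 0.0905 for cellular ones. With the filter at 5 TPM, which left 1 mobile element row, the median on EO 30 mg/g was 0.0774 for all members, and that row stood at -0.10 on EO 10 mg/g, -0.45 on EO 30 mg/g, 0.25 on D-camphor 17 mg/g, -0.35 in the EO step and -0.36 in the D-camphor step. Without a filter the mobile element median was -0.0817 on EO 10 mg/g, beside -0.0704 over all unigenes. With a pseudocount of 0.1 the mobile element median was -0.40 on EO 30 mg/g. The causes were not tested. Leaving out each library in turn moved the cellular median on EO 30 mg/g between -0.10 and 0.0815, the lowest without EO 30 mg/g replicate 3. It moved the mobile element median between -0.33 and -0.0744 on EO 10 mg/g (highest without untreated replicate 3), between -0.47 and -0.12 on EO 30 mg/g (lowest without EO 30 mg/g replicate 3) and between -0.11 and 0.10 on D-camphor 17 mg/g (highest without untreated replicate 3). Of 47 fold changes of named members recomputed, 0 passed the threshold under any alternative and 1 was reversed, the EO step of ribonucleoside-diphosphate reductase (TRINITY_DN7881_c0_g1), which leaving out each library in turn moved between -0.0001687 (without EO 30 mg/g replicate 3) and 0.29 (without EO 10 mg/g replicate 2). The number of 3 libraries per diet and the unknown depth limit what could be detected.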
